A study of Mus musculus with 8 samples.

Results

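The genes described here are 54 cell cycle and mitosis genes, from the cyclins and kinases of G1 to the motors and checkpoint kinases of mitosis. They were chosen by name, as the genes reached by 72 probes of a mouse 2-colour array through the accession each probe carries, out of 32395 gene names on the array. Earlier results of these data were known when they were chosen, and Fancf, which acts in repair of DNA crosslinks, is counted among them. The study co-cultured 3T3-L1 cells, a mouse fibroblast line used as pre-adipocytes, with RAW 264.7 cells, a mouse macrophage line, so that the lines shared medium across a porous insert without mixing. Each line was then profiled after 48 h without treatment, with 100 µM cortisol, with 100 µM serotonin or with both at 100 µM. There was 1 array per line and treatment, 8 in all, so the design asks how the lines differ over 4 shared treatments and how each treated array differs from the untreated array of its own line.

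All groups had a partner line in the shared medium, so no group shows either line alone. Each line is a single established line, and nothing in the labels says that the 4 treatments of a line were separate experiments. The p-values therefore measure the spread between these arrays, which may be technical. The sample was labelled with Cy5 on every array and a common reference with Cy3, and values are log2 ratios of Cy5 over Cy3, so the reference cancels in each difference. The methods describe that reference as pooled material of both lines, untreated and grown alone, which the labels do not detail. Hormone stocks were made in DMSO, the medium with hormone was renewed during the culture, and RNA came from the cells of the lower well. The methods give each line its own co-culture set-up, with that line in the lower well and the other in the insert. Cell numbers and the ratio of the lines differed between these set-ups. Set-up, cell number and line therefore cannot be told apart. All arrays of a line lay on a slide of their own, in the same order of treatments, so slide and line cannot be told apart, nor can position and treatment. Fewer cells in cycle and less RNA per cycling cell cannot be told apart in bulk RNA.

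The arrays held 43020 spots without controls, with median Cy5 signals of 51 to 103 units over backgrounds of 26.5 to 28, and 43.71% to 47.75% of spots were well above background in both channels. Of 19 macrophage markers on the array, 19 were above background on every RAW 264.7 array, and 13 of 14 tested were higher there, led by Lcp1, a leukocyte actin-bundling gene, at -6.48 on the log2 scale (3T3-L1 minus RAW 264.7). Of 13 fibroblast markers tested, 13 were higher in 3T3-L1, by a median of 5.05. On the 3T3-L1 arrays 14 to 16 of 19 macrophage markers were still flagged above background, with a summed Cy5 level of 16330 to 24620 units against 215600 to 235300 on the RAW 264.7 arrays, while Adgre1, Spi1 and Cybb, which define macrophages, were not above background on any of the 4. On the RAW 264.7 arrays 13 to 16 of 21 fibroblast markers were flagged, at a summed level of 87550 to 126000 units against 338000 to 435400, and the receptor gene Pdgfra and the matrix genes Col5a2, Fbn1 and Postn, above background on all 3T3-L1 arrays, were not above background on any. Lum, another matrix gene, was not above background on any array of either line. S100a6, of the same fibroblast list, was flagged the other way, above background on every RAW 264.7 array and on no 3T3-L1 array. A probe whose spots were all marked as outliers also counted as not above background, so these flags alone do not show low expression. The part of RNA from the partner line in the values below was not tested. Genes known to rise with glucocorticoids did not follow the hormone labels in 3T3-L1: Fkbp5 differed from the untreated array by 0.14 on the array labelled cortisol, by 1.31 on that labelled serotonin and by 1.44 on that labelled cortisol-serotonin, and Zbtb16 by -0.19, 1.94 and 1.96. Over 8 such genes in 3T3-L1 the medians on the arrays labelled cortisol, serotonin and cortisol-serotonin were -0.30, 0.78 and 0.78. Over 7 of them in RAW 264.7 the medians were -0.24, 0.33 and 0.01. Treatments are therefore given as labelled throughout, and each hormone name below is that of a label.

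Cells enter the cycle when D-type cyclins activate CDK4 and CDK6 and cyclin E activates CDK2, which frees E2F transcription factors from the retinoblastoma protein; the CDK inhibitors oppose this step. E2F factors turn on the genes that license origins and make DNA, and a later programme, run by B-MYB and FOXM1, turns on the genes of mitosis, which ends when the anaphase-promoting complex (APC/C) marks cyclin B and securin for destruction. 3T3-L1 cells are known to stop dividing once they fill the dish, and RAW 264.7 cells were derived from a virus-induced tumour.

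The promoter windows of the members were searched for letters of the sites that these programmes are known to use. RefSeq windows of 300 bases on GRCm38.p6, from 250 bases before the start site to 50 after it, matched 44 of the 54 members. Letters were searched on both strands for the cell cycle homology region CHR (TTTGAA), for the CCAAT box (CCAAT), and for E2F sites (TTTCCCGC, TTTCGCGC, TTTGCCGC or TTTGGCGC), and neighbouring E2F matches may share bases. An E2F match lay in 6 of the 8 genes of origin licensing and the MCM helicase that had a window (75.0%), against 2.6% of the 27025 genes of the whole table. A CHR match lay in 5 of 6 genes of kinesins, centromere and chromosomes (83.3%) and in 4 of 7 mitotic kinases and checkpoint genes (57.1%), against 20.2% of all genes, and 15 of the 44 members held one. Over all 44 members 8 held an E2F match (18.2%). The 5 genes of DNA synthesis held neither a CHR nor an E2F match. Each of the 15 members with a CHR match also held a CCAAT box, so 34.1% of the members held both, against 7.97% of all genes. A match is a run of letters and not a measured site. The windows below are those of the 3 mitosis members with the largest differences between the lines, Ccnb2, Mki67 and Bub1, of the licensing member with the largest, Mcm6, and of Ube2s and Fancf, which were the members past 2-fold on a treated array. Capitals mark CHR, CCAAT and E2F letters on either strand, and each window runs 5′ to 3′ on the strand of the gene.
Ccnb2, chr9:70421505-70421804, minus strand: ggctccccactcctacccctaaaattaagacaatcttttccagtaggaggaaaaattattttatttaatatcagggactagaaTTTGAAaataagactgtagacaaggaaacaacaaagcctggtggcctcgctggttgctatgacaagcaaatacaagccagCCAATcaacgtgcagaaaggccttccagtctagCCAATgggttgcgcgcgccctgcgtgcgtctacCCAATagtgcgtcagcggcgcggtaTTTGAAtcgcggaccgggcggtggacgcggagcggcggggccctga
Mki67, chr7:135716330-135716629, minus strand: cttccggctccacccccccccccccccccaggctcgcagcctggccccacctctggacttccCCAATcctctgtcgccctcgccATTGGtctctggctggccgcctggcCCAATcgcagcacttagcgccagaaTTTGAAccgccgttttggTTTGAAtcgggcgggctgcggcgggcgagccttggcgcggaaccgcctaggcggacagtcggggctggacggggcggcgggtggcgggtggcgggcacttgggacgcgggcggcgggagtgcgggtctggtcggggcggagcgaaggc
Bub1, chr2:127831810-127832109, minus strand: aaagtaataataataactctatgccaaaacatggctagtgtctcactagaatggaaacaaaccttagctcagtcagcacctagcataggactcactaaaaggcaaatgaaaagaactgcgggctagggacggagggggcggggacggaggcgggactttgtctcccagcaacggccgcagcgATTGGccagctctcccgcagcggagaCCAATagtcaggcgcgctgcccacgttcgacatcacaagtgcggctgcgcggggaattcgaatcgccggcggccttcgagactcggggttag
Mcm6, chr1:128359656-128359955, minus strand: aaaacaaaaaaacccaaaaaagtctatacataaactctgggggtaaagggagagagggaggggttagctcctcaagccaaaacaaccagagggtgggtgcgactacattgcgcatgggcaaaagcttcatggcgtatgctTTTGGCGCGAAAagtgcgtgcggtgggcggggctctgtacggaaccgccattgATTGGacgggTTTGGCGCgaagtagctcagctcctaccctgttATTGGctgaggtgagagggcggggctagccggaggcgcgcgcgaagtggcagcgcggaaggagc
Fancf, chr7:51862218-51862517, minus strand: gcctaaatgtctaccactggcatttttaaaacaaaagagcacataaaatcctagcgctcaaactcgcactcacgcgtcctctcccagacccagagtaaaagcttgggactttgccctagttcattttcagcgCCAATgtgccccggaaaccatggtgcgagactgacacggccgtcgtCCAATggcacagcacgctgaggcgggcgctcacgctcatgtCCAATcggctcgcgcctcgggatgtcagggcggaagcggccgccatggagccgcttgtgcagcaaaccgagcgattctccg
Ube2s, chr7:4812291-4812590, minus strand: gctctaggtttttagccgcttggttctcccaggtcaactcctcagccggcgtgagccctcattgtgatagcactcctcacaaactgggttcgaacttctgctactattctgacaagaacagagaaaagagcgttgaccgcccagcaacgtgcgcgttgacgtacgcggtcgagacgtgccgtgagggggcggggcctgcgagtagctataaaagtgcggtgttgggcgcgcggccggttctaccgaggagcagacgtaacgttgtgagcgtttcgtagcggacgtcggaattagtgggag
Ccnb2 held 2 CHR matches and 3 CCAAT boxes, and Mki67 held the same numbers. Bub1 held 2 CCAAT boxes and no CHR match, Mcm6 held 3 E2F matches, of which 2 overlapped, and 2 CCAAT boxes, Fancf held 3 CCAAT boxes, and Ube2s held none of the letters searched.

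Most cell cycle genes were higher in the macrophages. Of the 54 members, 46 had a probe well above background on all arrays, or on 7 of 8 where the scanner had marked a spot as an outlier, and were tested in limma with treatment and line as terms. Of these, 40 were higher in RAW 264.7 and 4 in 3T3-L1, where 36.2% of 11617 genes tested were higher in RAW 264.7 and 38.2% in 3T3-L1 at an adjusted p under 0.05. The median member differed by -1.40 on the log2 scale (3T3-L1 minus RAW 264.7) against 0.04 over all genes tested, and 38 of the 46 lay below the lower quartile of all genes, -0.62. At least 2-fold differences were found in 32 members higher in RAW 264.7 and in 1 higher in 3T3-L1. Of all 11617 genes, 1832 and 1870 differed by as much in these directions. The 4 values of each line did not overlap in 43 of the 46 members, which was also so in 8194 of all 11617 genes. The median of the members was -0.86, -0.72, -0.80 and -0.77 on the untreated, cortisol, serotonin and cortisol-serotonin arrays of 3T3-L1, and 0.54, 0.53, 0.46 and 0.55 on those of RAW 264.7. The macrophage arrays were high for the members under each treatment. On the untreated arrays alone, with no test, the median difference of 49 members was -1.37.

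**Figure D1:**
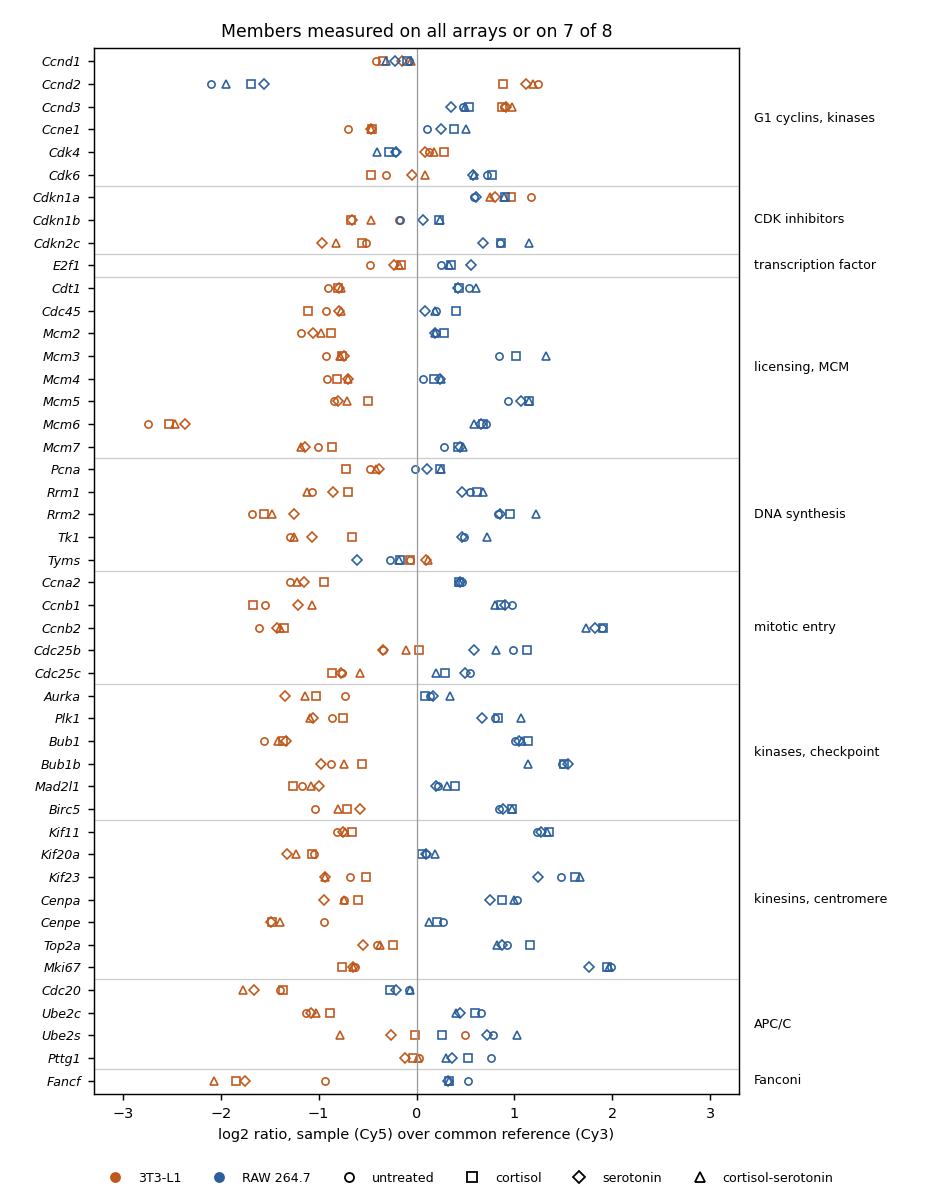
Each row is a member, grouped by role, and each point 1 array; the x axis is the log2 ratio of the sample (Cy5) over the common reference (Cy3), with orange for 3T3-L1, blue for RAW 264.7 and the symbol for the treatment. The orange and blue points lie apart in 43 of the 46 rows and overlap in Ccnd1, Cdkn1a and Ube2s; Ccnd2, Ccnd3, Cdk4 and Tyms have the orange points on the right.

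The G1 cyclins and their kinases were split between the lines. Ccnd2, a D-type cyclin that drives G1, was 1.25 on the untreated, 0.88 on the cortisol, 1.12 on the serotonin and 1.19 on the cortisol-serotonin array of 3T3-L1. Its values on the RAW 264.7 arrays, in that order, were -2.10, -1.70, -1.55 and -1.94. The fibroblast arrays were all high and the macrophage arrays all low, a difference of 2.93 ± 0.14 (SE, n = 4 arrays per line; limma, adjusted p = 2.075e-08), or 7.63-fold higher in 3T3-L1. Ccnd3, another D-type cyclin, was 0.90, 0.87, 0.92 and 0.97 in 3T3-L1 and 0.47, 0.54, 0.35 and 0.49 in RAW 264.7. Cdk4, the kinase of the D-type cyclins, was 0.13, 0.28, 0.08 and 0.18 in 3T3-L1 and -0.22, -0.28, -0.21 and -0.41 in RAW 264.7. Both were higher in 3T3-L1 without overlap, by 0.45 ± 0.10 and 0.45 ± 0.11 (limma, adjusted p = 0.002524 and 0.003535). Ccnd1, the third of the D-type cyclins, was -0.41, -0.35, -0.15 and -0.06 in 3T3-L1 and -0.08, -0.09, -0.22 and -0.31 in RAW 264.7. The lines overlapped for Ccnd1 and it was not called, at -0.06 ± 0.13 (limma, adjusted p = 0.6578). Cdk6 and Ccne1, the cyclin that follows the D-type cyclins, were higher in RAW 264.7, by 0.85 ± 0.14 and 0.83 ± 0.10, with adjusted p = 0.0002377 and 3.496e-05 in limma. In all, 3 of the 6 tested were higher in 3T3-L1 and 2 in RAW 264.7, with a median of 0.19.

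Of the CDK inhibitors, 2 of the 3 tested were higher in RAW 264.7. Cdkn2c (p18), which inhibits CDK4 and CDK6, differed by -1.60 ± 0.13 and Cdkn1b (p27), which inhibits CDK2, by -0.59 ± 0.15, with adjusted p = 9.007e-07 and 0.004162 in limma. Cdkn1a (p21), the inhibitor that p53 induces, was 1.17, 0.97, 0.80 and 0.75 in 3T3-L1 and 0.59, 0.91, 0.61 and 0.89 in RAW 264.7. The lines overlapped and it was not called, at 0.17 ± 0.13 (limma, adjusted p = 0.2513). A second probe of Cdkn1a read otherwise, at -1.05 to -0.76 in 3T3-L1, where 3 of 4 arrays were not above background in Cy5, and at 0.90 to 1.42 in RAW 264.7, so its line difference depends on the probe. With the Cy5 channel alone Cdkn1b turned to 0.33, not called. The transcription factor E2f1, which drives S phase genes, was higher in RAW 264.7 by 0.64 ± 0.11 (limma, adjusted p = 0.0003343).

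All 8 tested genes of origin licensing and the MCM helicase, which opens DNA at origins, were higher in RAW 264.7, from -0.97 (Mcm4) to -3.19 (Mcm6) on the log2 scale. Mcm6 was -2.74, -2.53, -2.37 and -2.47 in 3T3-L1 and 0.71, 0.68, 0.66 and 0.59 in RAW 264.7. It was low on every fibroblast array and lay far from the other helicase subunits, 9.12-fold lower in 3T3-L1 (log2 -3.19 ± 0.11, limma, adjusted p = 2.002e-09). Of the other helicase subunits, Mcm3 differed by -1.88, Mcm5 by -1.79, Mcm7 by -1.46, Mcm2 by -1.24 and Mcm4 by -0.97, each with an SE of 0.10 to 0.13. The loading factor Cdt1 and the helicase cofactor Cdc45 differed by -1.32 and -1.12. Mcm3 was fitted on 7 arrays, without RAW 264.7 serotonin. Each MCM gene was read by 1 probe, so the larger difference of Mcm6 has no check by another probe. Mcm2 was not called with the Cy5 channel alone (limma, adjusted p = 0.4193).

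Of the genes of DNA synthesis and nucleotide supply, 4 of 5 were higher in RAW 264.7. Rrm2, the S phase subunit of ribonucleotide reductase, was -1.69, -1.56, -1.26 and -1.48 in 3T3-L1 and 0.84, 0.96, 0.85 and 1.22 in RAW 264.7. The lines lay apart, by -2.46 ± 0.12 (limma, adjusted p = 2.438e-08), while Rrm1, its partner subunit, differed by -1.51, Tk1 by -1.76 and the sliding clamp Pcna by -0.64. With the Cy5 channel alone Pcna was at 0.0266 and not called. Tk1, thymidine kinase, was fitted without RAW 264.7 cortisol. Tyms, the thymidylate synthase of the same supply, was -0.07, -0.06, 0.10 and 0.11 in 3T3-L1 and -0.27, -0.17, -0.60 and -0.18 in RAW 264.7. It was the member of this role that was higher in 3T3-L1, by 0.33 ± 0.12 (limma, adjusted p = 0.03379), and leaving out the untreated, the serotonin or the cortisol-serotonin array of either line took its adjusted p to between 0.0508 and 0.2103.

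All 5 tested genes of mitotic entry were higher in RAW 264.7. Ccnb2, a B-type cyclin that activates CDK1, was -1.61, -1.36, -1.42 and -1.39 in 3T3-L1 and 1.90, 1.90, 1.82 and 1.73 in RAW 264.7. It had the largest line difference of the 46 members, 9.73-fold (log2 -3.28 ± 0.11, limma, adjusted p = 1.239e-09). Ccnb1, its sister cyclin, differed by -2.26, Ccna2, the cyclin of S and G2, by -1.60, and the phosphatases Cdc25c and Cdc25b, which activate CDK1, by -1.13 and -1.07. The remaining probe of Ccnb1, which carried an outlier spot, read -0.85 to -0.62 in RAW 264.7, where the 2 probes used read 0.70 to 1.11. In 3T3-L1 the remaining probe read -1.89 to -1.13, so the size of the line difference of Ccnb1 depends on the probe.

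The mitotic kinases, checkpoint and motor genes moved in the same direction, 13 of 13 tested. Bub1, a kinase of the spindle checkpoint, was -1.56, -1.36, -1.34 and -1.42 in 3T3-L1 and 1.00, 1.14, 1.04 and 1.08 in RAW 264.7. The difference was -2.48 ± 0.10 (limma, adjusted p = 6.083e-09), and its partner Bub1b differed by -2.21. The mitotic kinase Plk1 differed by -1.78, Birc5 (survivin), which guides Aurora B to centromeres, by -1.70, the checkpoint protein gene Mad2l1 by -1.41 and Aurka, a kinase of the spindle poles, by -1.24. Mki67, the marker of cycling cells, was -0.63, -0.76, -0.64 and -0.64 in 3T3-L1 and 1.99, 1.95, 1.76 and 1.97 in RAW 264.7. It was 6.01-fold higher in RAW 264.7 on 2 probes (log2 -2.59 ± 0.11, limma, adjusted p = 5.953e-09). The motors Kif23, of cytokinesis, and Kif11, of the spindle, differed by -2.27 and -2.04, Cenpa, the centromere histone, by -1.67, and Top2a, which untangles sister DNA, by -1.34. Kif20a, a motor of the midzone, differed by -1.28 and Cenpe by -1.48. Cenpe, a centromere motor, was fitted without RAW 264.7 serotonin.

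The APC/C group differed least among the mitotic members, with all 4 higher in RAW 264.7 at a median of -1.12. Ube2c, which starts ubiquitin chains for the APC/C, differed by -1.56, its activator Cdc20 by -1.39 and its substrate Pttg1 (securin) by -0.52. The 2 probes of Pttg1 differed in RAW 264.7, at 0.55 to 1.11 and at 0.03 to 0.42. Ube2s, which extends the chains that Ube2c starts, was 0.50, -0.02, -0.26 and -0.78 in 3T3-L1 and 0.78, 0.26, 0.72 and 1.02 in RAW 264.7. The lines overlapped, with the untreated fibroblast array above the cortisol macrophage array, and the difference was -0.84 ± 0.22 (limma, adjusted p = 0.005695). Fancf, of the Fanconi anaemia core complex that acts in repair of DNA crosslinks, was -0.93, -1.84, -1.75 and -2.07 in 3T3-L1 and 0.52, 0.33, 0.32 and 0.33 in RAW 264.7. It was lower on every fibroblast array, by -2.03 ± 0.15 (limma, adjusted p = 5.717e-07), and its SD over the 4 fibroblast arrays was 0.50 against 0.10 over the 4 macrophage arrays.

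The remaining 8 members were not tested, since none of their probes was above background in both channels on every array. Ccne2 and Cdkn1c were not well above background on any array. Cdk1 was flagged in Cy5 on all 4 RAW 264.7 arrays by 1 of 3 probes and on 1 array of each line by another, with log2 ratios of -0.63 to 0.40 over its probes. Aurkb was above background on 2 of 8 arrays. Cdk2, the kinase of cyclin E, missed on the RAW 264.7 cortisol-serotonin array alone, where it read 0.17. Its other values were -0.50, -0.50, -0.40 and -0.11 in 3T3-L1 and 0.90, 1.15 and 1.01 in RAW 264.7, apart between the lines. The brighter of 2 probes of Foxm1 missed on the cortisol-serotonin array of both lines and read -1.29, -0.93 and -1.36 on the other 3T3-L1 arrays and 0.81, 0.62 and 0.43 on those of RAW 264.7. The dimmer probe of Foxm1 read -0.20 to -0.01 and 0.88 to 1.19, so the size of its difference depends on the probe. The brighter probe of Cdc6, which loads the helicase, read -0.39 to 0.19 in 3T3-L1 and 0.45 to 0.78 in RAW 264.7, where 2 arrays missed. Ttk, a kinase of the spindle checkpoint, read -0.80 to -0.56 and 0.35 to 1.14, with 3 RAW 264.7 arrays not above background in Cy3.

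The motif matches were set beside the line differences of the 40 members that had both. The difference ran from -3.28 to -1.12, with a median of -1.67, over 13 members with a CHR match, and from -3.19 to 0.45, with a median of -1.41, over 27 without. It was -1.63 over 28 members with a CCAAT box and -0.84 over 12 without, and -1.79 over 5 with an E2F match and -1.41 over 35 without. These are descriptions, and no test was made of them.

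Other genes of the same pathways are given from lists of related genes. Of 63 other mitosis genes tested, 59 were higher in RAW 264.7 and 0 in 3T3-L1, with a median of -1.56. Among the largest were Ska1, which ties microtubules to kinetochores (16.0-fold), the kinase Nek2 (7.97-fold) and Sgo2a, which guards cohesion (7.23-fold). Ska1 was -1.57, -1.54, -1.58 and -1.94 in 3T3-L1 and 2.05, 2.42, 2.18 and 2.72 in RAW 264.7, which is a wider gap than that of any of the 46 members tested. Of 41 other replication genes, 36 were higher in RAW 264.7 and 0 in 3T3-L1 (median -1.21), with Gins1, Pole2, Rfc5 and Uhrf1 at -2.51, -2.46, -2.40 and -2.33. Of 14 other Fanconi and BRCA genes, 13 were higher in RAW 264.7 and 0 in 3T3-L1 (median -1.45), with Usp1 and Brip1 at -2.48 and -2.17.

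**Figure D2:**
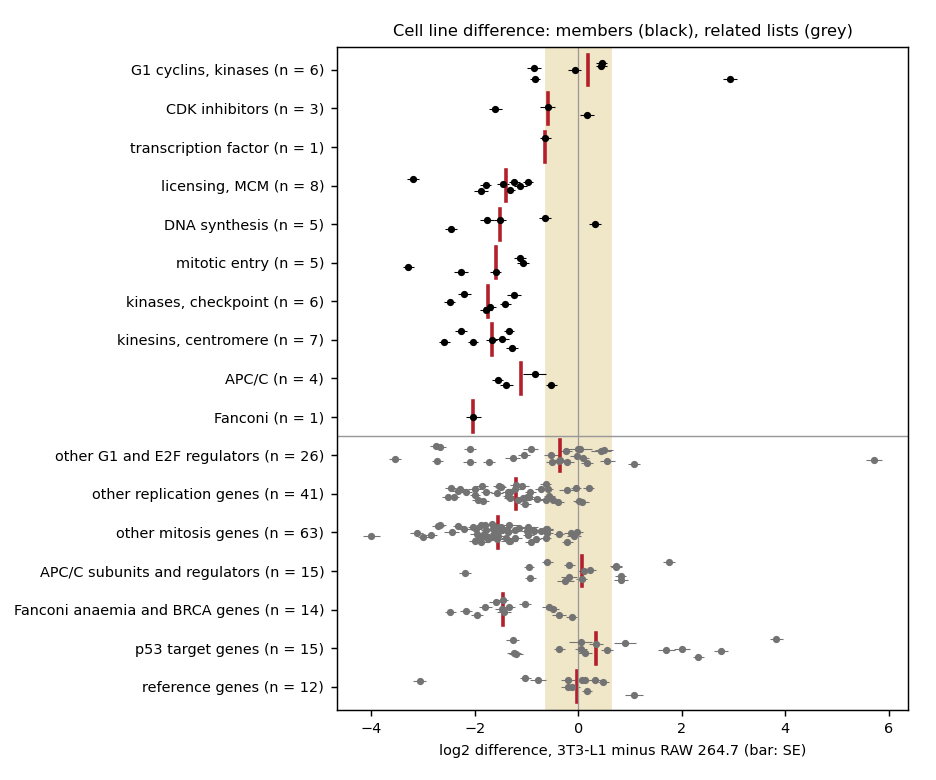
The x axis is the log2 difference between the lines, 3T3-L1 minus RAW 264.7, with bars for the SE of the limma fit; each point is a gene, black for members by role and grey for lists of related genes, red lines are medians and the shaded band is the middle 50% of all 11617 genes tested. The medians of licensing, DNA synthesis, mitotic entry, kinases and checkpoint, and kinesins lie left of the band, at -1.39 to -1.74. That of the APC/C members is -1.12, and Tyms (DNA synthesis) and Pttg1 (APC/C) lie within the band. G1 cyclins, APC/C subunits and p53 targets lie on both sides of 0, and Cdkn2a is the grey point at 5.72.

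The lists nearer to G1 arrest were split. Of 26 other G1 and E2F regulators, 13 were higher in RAW 264.7, 4 were higher in 3T3-L1 and 9 were not called (median -0.36). E2f2, an activating E2F factor, differed by -3.54, Mybl2 (B-MYB) by -2.76 and E2f6 by -2.72. Cdkn2a, which encodes the inhibitor p16 and the p53 activator ARF, was 0.77, 0.97, 0.50 and 0.47 in 3T3-L1 and -5.31, -5.14, -4.81 and -4.90 in RAW 264.7. The macrophage arrays were low for Cdkn2a under every treatment, by 52.6-fold (log2 5.72 ± 0.16). Of 15 p53 target genes, 8 were higher in 3T3-L1 and 4 in RAW 264.7 (median 0.35), with Plk2, Tnfrsf10b and Phlda3 at 3.83, 2.76 and 2.32. Of 15 APC/C subunits and regulators, 5 were higher in 3T3-L1 and 4 in RAW 264.7 (median 0.06), with the APC/C inhibitor Fbxo5 at -2.19 and the subunit Anapc16 at 1.75. Genes often used as references had a median of -0.02 over 12 tested, with 3 called in each direction, and Gusb, at -3.06, lay among the widest differences of the members.

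The hormone-treated arrays showed far smaller differences. Each was set against the untreated array of its line, so the 3 comparisons of a line share that array, and with 1 array a condition there was no test. Feature Extraction's own error of a member's difference was 0.29 to 0.55 on the log2 scale. No member differed by 2-fold in 3T3-L1 with cortisol (0 of 50 measured, against 1.65% of all genes) or with serotonin (0 of 50, against 1.24%). With cortisol-serotonin 2 of 49 did, against 1.43% of all genes. That is a description and not a test, since the members were chosen with earlier results of these data known. In RAW 264.7 none did with cortisol (0 of 48, against 0.083%), serotonin (0 of 47, against 0.914%) or cortisol-serotonin (0 of 49, against 0.254%). The median difference of the members was 0.11, 0.05 and 0.08 with cortisol, serotonin and cortisol-serotonin in 3T3-L1, and 0.06, -0.06 and 0.08 in RAW 264.7, while that of all genes lay between -0.04 and 0.02. With median centring in place of loess the median of all genes in 3T3-L1 itself moved to 0.59, 1.07 and 0.99. Then 17 of 50, 34 of 50 and 29 of 49 members passed 2-fold, all higher. Of all genes 18.4%, 55.6% and 49.5% passed it in either direction. The members' medians relative to all genes were 0.26, 0.13 and 0.14.

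**Figure D3:**
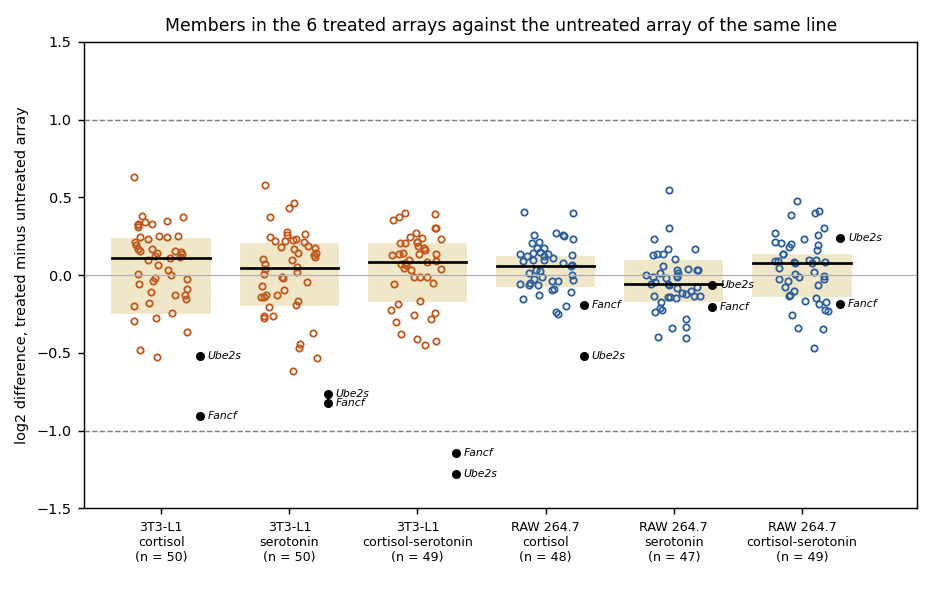
The y axis is the log2 difference of each treated array from the untreated array of its line, for the members measured in each comparison (n under each name); points are members, black lines their medians, shaded boxes the middle 50% of all genes and dashed lines 2-fold. Ube2s and Fancf, as filled points, fall below the lower dashed line in 3T3-L1 with cortisol-serotonin (-1.28 and -1.14), and no other point crosses a dashed line.

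Ube2s and Fancf were the members past 2-fold. Ube2s, at 0.50 on the untreated fibroblast array, was lower by 0.52 with cortisol, by 0.76 with serotonin and by 1.28 ± 0.30 (Feature Extraction error) with cortisol-serotonin, or 2.43-fold. In RAW 264.7 it differed by -0.52, -0.07 and 0.24. Its macrophage values alone spanned 0.26 to 1.02, so single arrays of this gene varied with no shared direction in that line. Fancf was lower by 0.91 with cortisol, 0.82 with serotonin and 1.14 ± 0.37 with cortisol-serotonin in 3T3-L1, or 2.21-fold for the last. In RAW 264.7 its differences were -0.19, -0.20 and -0.19. Each gene was read by 1 probe, and all 3 differences of a gene in a line rest on the same untreated array. With the Cy5 channel alone the cortisol-serotonin difference of Fancf was -0.88, short of 2-fold. On these same comparisons macrophage markers in 3T3-L1 had medians of -0.14, -0.46 and -0.36 and fibroblast markers in RAW 264.7 of 0.10, 0.54 and 0.36, and the part of these in the members' values was not tested.

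Members and genes near in role to Ube2s and Fancf were set beside them, without a test of the difference. Ube2c, which works with Ube2s, differed by 0.24, 0.05 and 0.10 in the 3 fibroblast comparisons, Cdc20 by 0.03, -0.27 and -0.38 and Pttg1 by -0.06, -0.14 and -0.01. Of these the cortisol-serotonin difference of Cdc20 was larger than its Feature Extraction error, 0.35, and all were under 2-fold. Of the other Fanconi and BRCA genes none differed by 2-fold on any treated array, and their medians in 3T3-L1 were -0.09, -0.06 and -0.08. No subunit or regulator of the APC/C differed by 2-fold except Anapc5, by 1.02 in RAW 264.7 with serotonin, where its untreated value was -0.97 and the serotonin value 0.05.

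The CDK inhibitors were below the untreated array in all 3 fibroblast comparisons, 3 of 3 measured each time. Their medians were -0.20, -0.44 and -0.30. Of all genes 6770 of 13718, 6659 of 13590 and 6274 of 13400 were below it, and these comparisons share that array. Cdkn1a differed by -0.20, -0.37 and -0.42 there, and Cdkn1b by -0.48, -0.47 and -0.28. In RAW 264.7 Cdkn1b was above the untreated array each time, by 0.40, 0.23 and 0.41, and Cdkn1a differed by 0.26, -0.15 and 0.10. The Cdkn1b differences were larger than their Feature Extraction errors, 0.29 to 0.32, in 4 of the 6 comparisons and were all under 2-fold. Ccnd2 had the same opposed signs, at -0.36, -0.13 and -0.06 in 3T3-L1 and 0.41, 0.55 and 0.16 in RAW 264.7. Ccnd1 ran the other way, at 0.06, 0.26 and 0.35 in 3T3-L1 and -0.01, -0.14 and -0.23 in RAW 264.7.

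The other members stayed within 0.63 of the untreated array in either direction. In 3T3-L1 the farthest were Tk1 with cortisol (0.63), Aurka with serotonin (-0.61), Cdc6 with serotonin (0.58) and Cenpe (-0.53 with cortisol and with serotonin). Past 0.5 on the log2 scale in 3T3-L1 were 4, 5 and 2 members with cortisol, serotonin and cortisol-serotonin, Ube2s and Fancf included. In RAW 264.7 there were 1, 1 and 0, namely Ube2s with cortisol and Ccnd2 with serotonin. The share of all genes past 0.5 was not counted, so these counts have no background to be set against. In 3T3-L1 licensing and MCM genes had medians of 0.15, 0.14 and 0.16, DNA synthesis genes of 0.12, 0.22 and 0.07 and mitotic entry genes of 0.25, 0.14 and 0.22. The kinases and checkpoint genes had medians of 0.12, -0.10 and 0.09 and the kinesin and centromere genes of 0.13, -0.21 and -0.01. The lowest Feature Extraction error of a single member was 0.29. The error of a median over members was not computed, so these medians cannot be judged against it. In RAW 264.7 the mitotic entry genes had medians of -0.06, -0.07 and -0.12. All 6 measured were below the untreated array with serotonin and with cortisol-serotonin, as were 7376 of 12697 and 6790 of 13360 of all genes. Mki67 differed by -0.13, -0.01 and -0.01 in 3T3-L1 and by -0.04, -0.23 and -0.02 in RAW 264.7, less than the errors of its probes. Over the 43 members measured in all 6 comparisons, 8 were above the untreated array each time and 3 below it each time. The 3 comparisons of a line share that array, and the same count over all genes was not made.

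**Figure D4:**
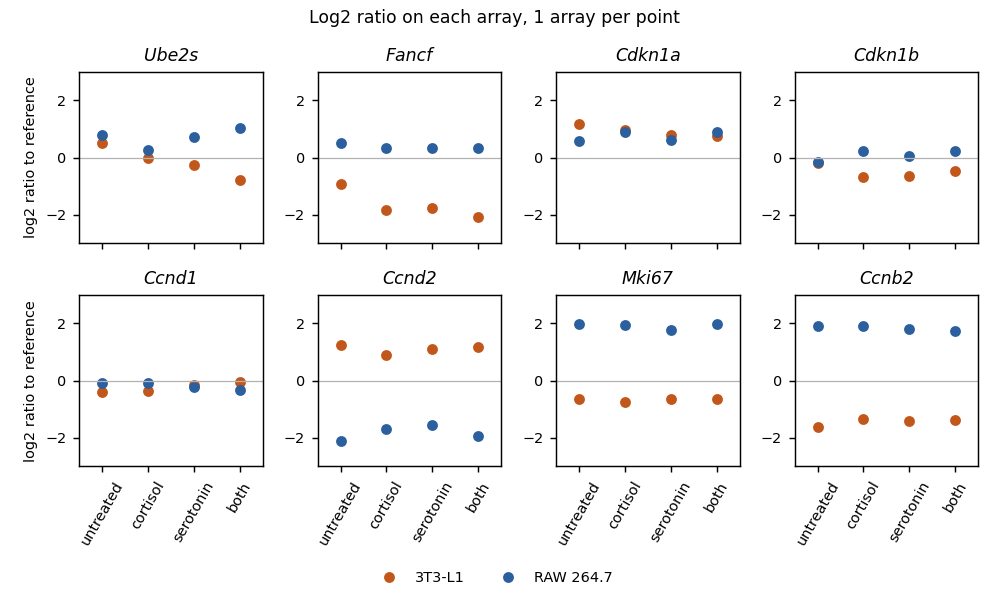
Each panel is a member, the x axis the treatment, the y axis the log2 ratio to the common reference, and each point 1 array, orange for 3T3-L1 and blue for RAW 264.7. Ube2s and Fancf fall from untreated to cortisol-serotonin in 3T3-L1, from 0.50 to -0.78 and from -0.93 to -2.07, while Mki67 and Ccnb2 keep their gap between the lines under each treatment.

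Among the related genes, Wee1, the kinase that holds CDK1 inactive, was at least 2-fold lower in 3T3-L1 with cortisol, by 1.40, and it was higher by 0.48 and 0.67 with serotonin and cortisol-serotonin. The p53 target Plk3 was at least 2-fold higher in 3T3-L1 with cortisol, by 1.38, and differed by 0.75 and 0.88 on the other treated arrays. With Anapc5 these were the genes of the 6 related lists that passed 2-fold in any comparison.

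A fit of both hormones as additive terms within each line, in which each hormone is present on 2 arrays and absent on 2, allowed a test for 43 members in limma. It called 0 members for cortisol in 3T3-L1 (0% of 10995 genes called), for serotonin in 3T3-L1 (0.109%), for cortisol in RAW 264.7 (0%) and for serotonin in RAW 264.7 (0%). At an unadjusted p under 0.05 there were 2, 4, 0 and 1 of the 43 members, against 2.79%, 13.2%, 2.58% and 3.32% of all genes. The lowest adjusted p values in 3T3-L1 were that of Fancf for cortisol, 0.8978, and that of Ube2s for serotonin, 0.2071, in limma. For the difference of the serotonin effect between the lines the lowest was that of Ube2s, an adjusted p of 0.501 in limma, and no member's effect was called different between the lines. Ube2s was called lower with serotonin in 3T3-L1 where that line was fitted alone (limma, adjusted p = 0.02303) or where an untreated, serotonin or cortisol-serotonin array of RAW 264.7 was left out. The share of all genes called in those fits is not given, so this call has no background to be set against.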

How the data were processed

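RNA of 8 samples, 1 per cell line and treatment, was hybridised against a common reference on Agilent 2-colour mouse arrays. The authors scanned them with Agilent Feature Extraction (version 10.5.1.1 in the submitters' processing notes). The deposited scanner files hold median signal and background intensities of each spot, which were not normalised across arrays, Feature Extraction's processed signals, and its log10 ratio with an error. A deposited series matrix holds the same log10 ratios, to within 0.005, with a median of 0 per column. The authors' p-value per spot, a test of each sample against the reference, was left out.

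Median signals were background-corrected (normexp, offset 50) and loess-normalised array by array with limma 3.58.1 under R 4.3.3. Control spots were left out of the loess fit, and outlier spots only when the spots of a probe were averaged. Log2 ratios were computed from the deposited intensities. Spots of a probe were averaged to 39429 probes, of which 27508 (69.8%) were named through RefSeq accessions (GRCm38.p6, names only). Probes of a gene were averaged where they exceeded background in Cy5 and Cy3 on every array of a comparison. The line difference was fitted with treatment and line as terms (3 residual degrees of freedom) and the hormone effects as additive terms within each line (2), with Benjamini-Hochberg adjustment over all genes tested at 0.05. Treated arrays were compared with the untreated array at 2-fold, the cut-off of the study's own lists for this comparison. The fits were also run on simulated arrays with known differences and independent noise. Those arrays held no slide effect, so they do not show how the fits handle one. Arrays hold no counts, and their number limits the precision.

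The members and lists were chosen with earlier results of these data known. Array values are printed for members past 2-fold on a treated array, for the 5 with the largest line difference in each direction and for Cdkn1a, Ube2s, Fancf, Ccnd1, Ccnd2 and Mki67. Up to 4 genes are named per related list, the largest past the threshold, except 1 that is not reported here; Cdkn2a and Ska1 values and those of untested members were added after their values were seen. The gene lists comprised related G1 and E2F, replication, mitosis, APC/C, Fanconi and p53 genes, reference genes, glucocorticoid-responsive genes and cell type markers. Figures were drawn with matplotlib 3.10.9.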

Additional observations from a re-analysis of the deposited data

How the results depend on the processing

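The count of members higher in RAW 264.7 was 39 to 41 under the other settings that kept the filter on dim probes, and 45 of 54 without it. Those higher in 3T3-L1 numbered 3 or 4, except 1 with median centring in place of loess, where Ccnd3, Cdk4 and Tyms lost the call. The median line difference of the members moved to -1.59 with Feature Extraction's processed signals and with the series matrix, to -1.63 with median centring and to -1.59 with the Cy5 channel alone, where the median of all genes moved to -0.05, -0.05, -0.14 and -0.13. It lay between -1.42 and -1.36 with any array left out. Single members that turned sign were Cdkn1a (-0.0723 with median centring, -0.20 with Cy5 alone and -0.95 with no filter), Cdkn1b (0.33), Pcna (0.0266) and Tyms (-0.0365) with Cy5 alone, and Ccnd1 (0.0252 without either untreated array, and -0.17 to 0.0252 over all arrays left out). Tyms also lost its call with the processed signals, the series matrix and no filter; Mcm2 lost it with Cy5 alone (adjusted p = 0.4193) and Pttg1 with median centring (adjusted p = 0.06937).

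Median centring moved the median of all genes in 3T3-L1 by 0.59, 1.07 and 0.99 with cortisol, serotonin and cortisol-serotonin. Under it the members' medians were 0.85, 1.20 and 1.14, or 0.26, 0.13 and 0.14 relative to all genes. In these comparisons 17 of 50, 34 of 50 and 29 of 49 members passed 2-fold, all higher. Of all genes 18.4%, 55.6% and 49.5% passed it in either direction. Relative to all genes, Ube2s and Fancf stayed lower with cortisol-serotonin, by -1.18 and -1.14. Another count past 2-fold that moved was 1 of 50 in 3T3-L1 with serotonin (processed signals and series matrix), against 2.75% of all genes. With Cy5 alone the counts were 1 of 50, 2 of 48 and 5 of 50 in RAW 264.7 with cortisol, serotonin and cortisol-serotonin. Of all genes 0.867%, 8.17% and 5.13% passed there. Members called for serotonin in 3T3-L1 numbered 16 with median centring, all with effects above 0. There was 1 with the line fitted alone, and 0 to 1 with an array left out. That 1 was Ube2s, lower, without the untreated, serotonin or cortisol-serotonin array of RAW 264.7 (limma, adjusted p = 0.04766, 0.02292 and 0.03608). The share of all genes called under these settings is not given, so these counts have no background to be set against. The cause of these changes with the setting was not tested. Slide as a block could not be fitted, since each line has its own slide. The treatment term of the line fit pairs the lines by treatment, and without it 40 and 4 members were called, as with it. For the hormone comparisons no paired analysis was possible because each line and treatment has 1 array.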
